A study of Mus musculus with 32 samples.

Results

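The mast cell and basophil genes described here are 10 genes chosen by name, Il1rl1, Cpa3, Ms4a2, Fcer1a, Fcer1g, Mcpt8, Prss34, Gzmb, Hdc and Mitf, and followed across 8 groups of 4 libraries. All 10 were found by symbol among the 27179 genes of the count table, and all 10 passed the filter on low counts in every fit. RNA was sequenced from 2 sorted populations of adult C57BL/6 mice: LSK cells, named for absent lineage markers and for Sca-1 and Kit on the surface, which hold blood stem and multipotent cells, and progenitors, whose sorting gate the labels do not describe. The same 16 mice gave 1 library of each population. In each population the 4 groups were the RosaCreERT2 knockout (Hbo1 fl/fl, both alleles of Hbo1 deleted after tamoxifen), its control (Hbo1 fl/+, 1 allele deleted after tamoxifen), the Mx1-Cre knockout (both alleles deleted after PolyIC, which induces interferon) and its control (1 allele deleted after PolyIC). Controls therefore carried the recombinase and the deletion of 1 allele too, although the treatment label calls them wild type. RosaCreERT2 is active in most cell types and Mx1-Cre in interferon-responsive cells, so in neither line was the deletion limited to blood-forming cells. The mice's ages were not stated. Hbo1, listed as Kat7 in the count table, encodes a histone acetyltransferase.

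Mast cells and basophils are granulocytes that arise from blood progenitors, carry the high-affinity IgE receptor FcεRI and release histamine and proteases from granules. FcεRI is built of an IgE-binding alpha chain (Fcer1a), a beta chain (Ms4a2) and a gamma chain (Fcer1g) that other Fc receptors share, while Il1rl1 encodes ST2, the receptor for the cytokine IL-33. Cpa3 (carboxypeptidase A3) is a protease of mast cells and basophils, Mcpt8 and Prss34 are serine proteases of mouse basophils, and Gzmb (granzyme B) is a granule protease best known from cytotoxic lymphocytes. Hdc encodes histidine decarboxylase, which makes histamine, and Mitf is a transcription factor of mast cells and pigment cells. GATA2 and GATA1 are transcription factors needed for mast cell and basophil development in mice.

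Promoter sequence is shown for 6 of the genes that fell in Mx1-Cre knockout LSK cells. The promoter of Gzmb, which fell too, had no match to the words marked below and is not shown. The GATA factor genes fell in these libraries as well, and whether they act on these promoters was not tested. Each run is the 250 bases before an annotated start of transcription, 5′ to 3′ on the gene's strand, from RefSeq on GRCm38.p6 (mm10). These starts are not always the outer end of the gene span given further below. The windows of Il1rl1 and Mcpt8 lie inside those spans, and the windows of Cpa3, Ms4a2 and Fcer1a reach into them. Capitals mark the GATA words AGATAA and AGATAG and TGATAA and TGATAG, or the E-box words CACGTG and CATGTG, searched on both strands, so that AGATAA on the other strand reads TTATCT.
Il1rl1, chr1:40429320-40429569, plus strand: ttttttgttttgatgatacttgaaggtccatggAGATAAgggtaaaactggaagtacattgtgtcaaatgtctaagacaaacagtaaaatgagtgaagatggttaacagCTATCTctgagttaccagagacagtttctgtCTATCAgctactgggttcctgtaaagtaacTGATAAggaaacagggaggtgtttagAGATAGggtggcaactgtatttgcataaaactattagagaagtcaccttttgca
Cpa3, chr3:20242182-20242431, minus strand: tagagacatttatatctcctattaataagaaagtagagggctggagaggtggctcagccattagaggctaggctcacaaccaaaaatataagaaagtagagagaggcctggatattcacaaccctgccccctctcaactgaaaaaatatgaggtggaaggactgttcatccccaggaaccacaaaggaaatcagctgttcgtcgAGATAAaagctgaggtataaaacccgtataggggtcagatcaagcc
Ms4a2, chr19:11623720-11623969, minus strand: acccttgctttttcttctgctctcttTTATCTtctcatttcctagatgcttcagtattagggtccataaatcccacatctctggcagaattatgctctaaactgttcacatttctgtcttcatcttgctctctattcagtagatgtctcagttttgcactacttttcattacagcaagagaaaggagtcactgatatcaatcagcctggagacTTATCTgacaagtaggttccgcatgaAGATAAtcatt
Fcer1a, chr1:173227230-173227479, minus strand: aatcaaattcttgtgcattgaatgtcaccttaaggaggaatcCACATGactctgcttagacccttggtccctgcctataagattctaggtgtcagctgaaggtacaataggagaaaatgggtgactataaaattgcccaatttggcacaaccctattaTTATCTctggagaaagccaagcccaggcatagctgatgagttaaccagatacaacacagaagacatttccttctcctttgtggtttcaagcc
Prss34, chr17:25298144-25298393, plus strand: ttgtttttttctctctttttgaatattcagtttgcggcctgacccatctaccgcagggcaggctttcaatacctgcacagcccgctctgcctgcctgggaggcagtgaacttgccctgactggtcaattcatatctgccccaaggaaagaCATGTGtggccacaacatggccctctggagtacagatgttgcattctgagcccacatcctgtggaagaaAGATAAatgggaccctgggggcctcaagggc
Mcpt8, chr14:56085198-56085447, minus strand: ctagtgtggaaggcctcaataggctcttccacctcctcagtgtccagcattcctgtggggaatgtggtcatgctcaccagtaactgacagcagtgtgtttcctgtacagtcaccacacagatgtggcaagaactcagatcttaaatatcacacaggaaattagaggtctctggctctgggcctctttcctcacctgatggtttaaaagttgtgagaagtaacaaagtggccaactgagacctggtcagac

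The promoter table held 13 promoters for the 10 genes, of which 9, from 7 genes, had a GATA word. Among all 32851 mouse promoters of this length, 26.5% had at least 1 GATA word and 6.4% had 2 or more. The first Il1rl1 promoter had 5 GATA words, Ms4a2 had 3, and Cpa3, Fcer1a and Prss34 had 1 each. GATA words also stood in promoters of genes that were not called between knockout and control libraries, with 1 in Hdc and with 1 and 2 in a pair of Mitf promoters. An E-box word was found in the promoters of Fcer1a and Prss34, against 17.6% of all promoters. Mcpt8, Fcer1g and Gzmb had no GATA word in this window. The windows of Mcpt8 and Hdc lie inside the spans of these genes, so bases before those spans were not searched. All words found are matches of letters, not measured binding sites.

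The genes lie on 7 chromosomes and all are protein coding in the mm10 annotation. Il1rl1 (Entrez gene 17082) spans chr1:40404864-40465418, Fcer1a (14125) chr1:173221269-173227232 and Fcer1g (14127) chr1:171229572-171234349. Ms4a2 (14126) spans chr19:11615517-11623790, Cpa3 (12873) chr3:20215616-20242209 and Prss34 (328780) chr17:25298394-25300168. Mcpt8 (17231) at chr14:56082163-56085499 and Gzmb (14939) at chr14:56258836-56262334 are on the same chromosome. Hdc (15186) spans chr2:126593659-126624025 and Mitf (17342) chr6:97807002-98021360. Cpa3 overlaps the gene models Gm31320, Gm7428 and Mir7007, Mcpt8 overlaps Mir6949 and Mitf overlaps Gm15531. The strand setting of the counting is not given in the sources used here, so reads of these overlapping genes cannot be told apart.

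Libraries held 7275277 to 18409271 counts with a median of 12207444. Levels are given as CPM, the count of a gene scaled to library size, after TMM scaling over all 32 libraries. Kat7 stood at 0 to 1.65 CPM in the 16 knockout libraries and at 39.7 to 78.0 CPM in the 16 controls. Sex-linked genes went against the labelled sex in RosaCreERT2 knockout LSK libraries 2 and 3, whose progenitor partners matched their labels. Values without these libraries are given beside the results that use them. Those fits have fewer libraries in that group, which alone can end a call. Progenitor Mx1-Cre control 1 and knockout 4 stood apart in the slope of log2 CPM on log2 exon length, at 0.153 and 0.212, against 0.372 to 0.628 in the other 30 libraries. All 9 stem and multipotent marker genes were higher in LSK than in progenitor controls. Of 5 genes of mature mast cells, Tpsab1 had no count in any group, the summed level was at most 8.98 CPM in any library, and all 5 were at 0 in the progenitor Mx1-Cre controls. In Mx1-Cre LSK cells their sum was 0.284 to 2.58 CPM in the knockouts and 0 to 0.163 CPM in the controls. Only 1 of the 5, Cma1, was tested in LSK cells. It was called higher in Mx1-Cre knockout LSK cells, at a log2 fold change of 2.97.

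In LSK cells of the Mx1-Cre line, 7 of the 10 genes fell with loss of Hbo1. The receptor Il1rl1, the alpha and beta chains of FcεRI and the proteases Cpa3, Mcpt8, Prss34 and Gzmb stood at 17.1% to 39.7% of the control level. The gamma chain Fcer1g, Hdc and Mitf did not pass the test. Of all 14102 genes tested in this comparison, 15.9% were called lower and 31.0% were called in either direction, at an adjusted p under 0.05 in edgeR's quasi-likelihood test with Benjamini-Hochberg adjustment. The median log2 fold change was -1.91 over the 10 genes and -0.01 over all genes tested. In bulk RNA, fewer cells of a type and less RNA per cell cannot be told apart.

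Il1rl1 stood at 4.55, 4.94, 5.01 and 5.74 CPM in Mx1-Cre knockout LSK cells, against 27.4, 20.7, 12.9 and 16.2 CPM in their controls. All 4 knockouts lay close together and below every control, and the groups did not overlap. The log2 fold change was -1.94 ± 0.19 (SE, n = 4 each), with an adjusted p of 1.14e-06 in edgeR. Fcer1a was measured at 3.98, 4.51, 3.29 and 3.53 CPM in the knockouts and at 25.9, 18.5, 15.4 and 30.1 CPM in the controls. This was the lowest share of the control level among the 10 genes, with every knockout far below every control. Its log2 fold change was -2.55 ± 0.49 (SE, adjusted p = 0.000995 in edgeR). The beta chain gene Ms4a2 had 2.94, 6.07, 4.93 and 4.42 CPM in the knockouts, against 17.4, 13.5, 19.7 and 19.4 CPM in the controls. The ranges were again separate, at a log2 fold change of -1.91 ± 0.29 (SE, adjusted p = 0.00012 in edgeR). Fcer1g, which encodes the shared gamma chain, stood at 61.2, 54.9, 56.8 and 73.4 CPM in the knockouts and at 66.6, 71.1, 61.2 and 76.5 CPM in the controls. These ranges overlapped and its log2 fold change of -0.16 ± 0.18 did not pass the test (adjusted p = 0.513 in edgeR), although with the trend on exon length removed it was -0.40 with an adjusted p of 0.0452.

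Among the granule proteases, Cpa3 had 19.7, 29.96, 38.4 and 46.3 CPM in Mx1-Cre knockout LSK cells, against 67.3, 73.2, 87.0 and 111 CPM in the controls. All knockouts were below all controls, with a log2 fold change of -1.33 ± 0.23 (SE, adjusted p = 0.000403 in edgeR). Mcpt8 stood at 27.3, 19.2, 34.7 and 32.3 CPM in the knockouts, against 100, 85.0, 99.3 and 142 CPM in the controls. The lowest control was far above the highest knockout, and the log2 fold change was -1.92 ± 0.49 (SE, adjusted p = 0.00753 in edgeR). For Prss34, the values were 47.6, 61.0, 89.2 and 98.6 CPM in the knockouts and 283, 220, 237 and 368 CPM in the controls. The groups did not overlap, and the log2 fold change was -1.91 ± 0.57 (SE, adjusted p = 0.0173 in edgeR). Without knockout 1 the Prss34 value was -1.75 with an adjusted p of 0.0545. Gzmb was near the detection limit, at 0, 1.07, 0.548 and 0.530 CPM in the knockouts, against 2.77, 1.57, 1.95 and 2.84 CPM in the controls. Every knockout was below every control, with a log2 fold change of -1.94 ± 0.42 (SE, adjusted p = 0.00269 in edgeR), and 3 counts in the knockout library at 0 would have been 0.284 CPM.

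Hdc, the histamine-forming enzyme, stood at 100.2, 83.5, 100.4 and 84.9 CPM in Mx1-Cre knockout LSK cells and at 123, 122, 100.5 and 111 CPM in the controls. The highest knockout lay just under the lowest control, and the log2 fold change of -0.31 ± 0.22 did not pass the test (adjusted p = 0.296 in edgeR). Fitted on these 8 libraries alone it was -0.32 with an adjusted p of 0.0303. Mitf had 11.2, 7.89, 9.40 and 8.75 CPM in the knockouts, against 10.4, 11.1, 11.1 and 9.90 CPM in the controls. Knockout 1 had the highest value of these 8 libraries and the ranges overlapped, at a log2 fold change of -0.20 ± 0.23 (adjusted p = 0.541 in edgeR). In all, 8 of the 10 genes had separate ranges in this comparison, namely the 7 that were called and Hdc, against 29.5% of all genes tested.

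**Figure D1:**
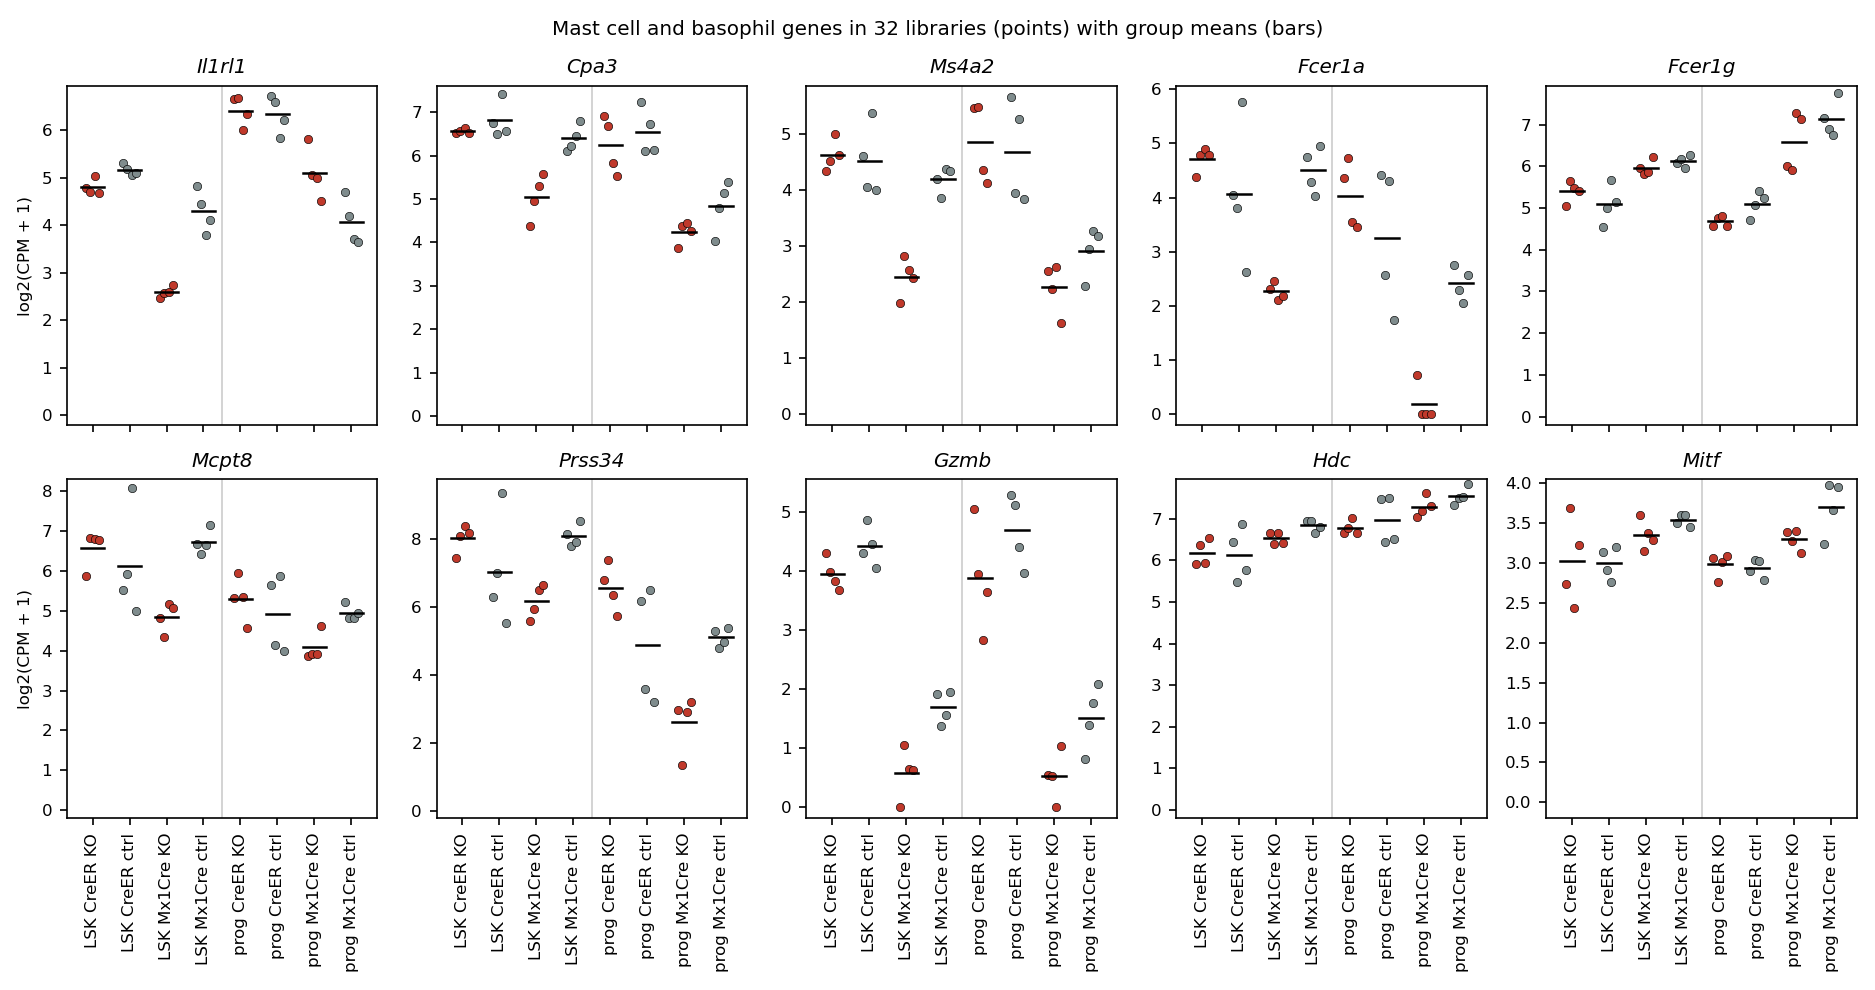
Level of each of the 10 genes in every library, as log2(CPM + 1), in 8 groups of 4 libraries (CreER stands for RosaCreERT2), with LSK groups left of progenitor groups, knockouts in red left of their controls in grey, and bars at the group means of the log values. In Mx1-Cre LSK cells the 4 red points lie below the 4 grey points for Il1rl1, Cpa3, Ms4a2, Fcer1a, Mcpt8, Prss34, Gzmb and, narrowly, Hdc.

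Markers of other cell types moved in the same libraries. Of 8 megakaryocyte and erythroid markers, 8 were lower in Mx1-Cre knockout LSK cells, with a summed level of 77.8 to 101.5 CPM in the knockouts and 227 to 546 CPM in the controls. Of the 9 eosinophil markers listed, 8 were tested, 5 were lower and 1, Siglecf, was higher, at a summed 70.4 to 109 CPM in the knockouts, against 95.3 to 323 CPM in the controls. Epx, the eosinophil peroxidase gene, had 10.99, 5.10, 1.80 and 2.83 CPM in the knockouts and 76.9, 56.0, 17.96 and 20 CPM in the controls. Of 9 stem and multipotent markers, 6 were lower and 1 higher, at a summed 929 to 1279 CPM in the knockouts, against 1290 to 1581 CPM in the controls. Of the 6 dendritic cell markers listed, 4 were tested, 2 were lower and 1 higher, and all 6 were at a summed 87.4 to 158 CPM in the knockouts and 182 to 260.4 CPM in the controls. Of the 8 T and natural killer cell markers listed, 4 were tested and 1 was higher. All 8 summed to 203 to 315 CPM in the knockouts and 170 to 197 CPM in the controls. Of the 5 B cell markers listed, 3 were tested and 1 was lower. All 5 summed to 14.05 to 27.1 CPM in the knockouts and 28.4 to 46.8 CPM in the controls. Of 7 granulocyte and monocyte progenitor markers, 1 was higher. No marker of the lists summed here was at 0 in a whole LSK group of this line. The part of these cell types in the results for the 10 genes was not tested. The slope on exon length also separated these groups, at 0.423, 0.528, 0.383 and 0.372 in the knockouts, against 0.543, 0.565, 0.532 and 0.551 in the controls. With the length trend removed, the 7 genes were still called lower, at log2 fold changes of -2.69 for Fcer1a to -1.43 for Cpa3.

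In the RosaCreERT2 line, none of the 10 genes passed the test in knockout LSK cells, a count that depended on 1 control library. edgeR called 0 of 10, against 3.16% of all genes tested, 1 gene had an unadjusted p under 0.05, and DESeq2 called 0. Il1rl1 stood at 26.6, 25.0, 31.9 and 24.6 CPM in the knockouts, against 38.8, 35.1, 32.3 and 33.3 CPM in the controls. It was the only 1 of the 10 whose ranges did not overlap, against 9.54% of all genes tested, with knockout 3 just under the lowest control and a log2 fold change of -0.36 ± 0.17 (SE, n = 4 each, adjusted p = 0.28 in edgeR). Gzmb had 18.8, 14.8, 13.3 and 11.9 CPM in the knockouts and 18.8, 28.1, 21.2 and 15.6 CPM in the controls. These ranges overlapped, and the log2 fold change was -0.50 ± 0.28 (adjusted p = 0.378 in edgeR). Without knockouts 2 and 3 the values were -0.44 for Il1rl1 (adjusted p = 0.526 in edgeR) and -0.45 for Gzmb (0.762). Hdc and Mitf had log2 fold changes of -0.03 and 0.12, and those of Cpa3, Ms4a2 and Fcer1g were -0.30, 0.02 and 0.28.

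A single control library set the values of the basophil proteases in this line. Prss34 stood at 172, 270, 329 and 290 CPM in RosaCreERT2 knockout LSK cells, against 77.5, 127, 652 and 44.9 CPM in the controls. Mcpt8 had 57.8, 112, 111 and 108 CPM in the knockouts, against 45.3, 59.3, 270 and 30.8 CPM in the controls. Fcer1a was at 19.8, 26.6, 28.6 and 26.5 CPM in the knockouts, against 15.5, 13.0, 53.6 and 5.20 CPM in the controls. For each of the 3 genes control 3 was above every knockout, while the other 3 controls were at or below the lowest knockout except Mcpt8 in control 2. With all libraries, the log2 fold changes were 0.23 for Prss34, -0.06 for Mcpt8 and 0.22 for Fcer1a. Without control 3 they were 1.68 for Prss34 (adjusted p = 0.00732 in edgeR), 1.11 for Mcpt8 (adjusted p = 0.0233) and 1.19 for Fcer1a (adjusted p = 0.0304), so that 3 genes were called higher. In fits without 1 library, 159 to 714 of all genes were called in this comparison, against 445 with all libraries. The share of all genes without control 3 alone is not given here. Control 3 was also the highest of the 4 controls in Ms4a2, at 40.5 CPM, and in Cpa3, at 170 CPM. Without knockouts 2 and 3, whose sex-linked genes went against their labels, the log2 fold changes were 0.04 for Prss34, -0.28 for Mcpt8 and 0.09 for Fcer1a. Summed eosinophil markers reached 42.9 to 165 CPM in the knockouts and 26.4 to 67.9 CPM in the controls of this line, and their part was not tested.

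**Figure D2:**
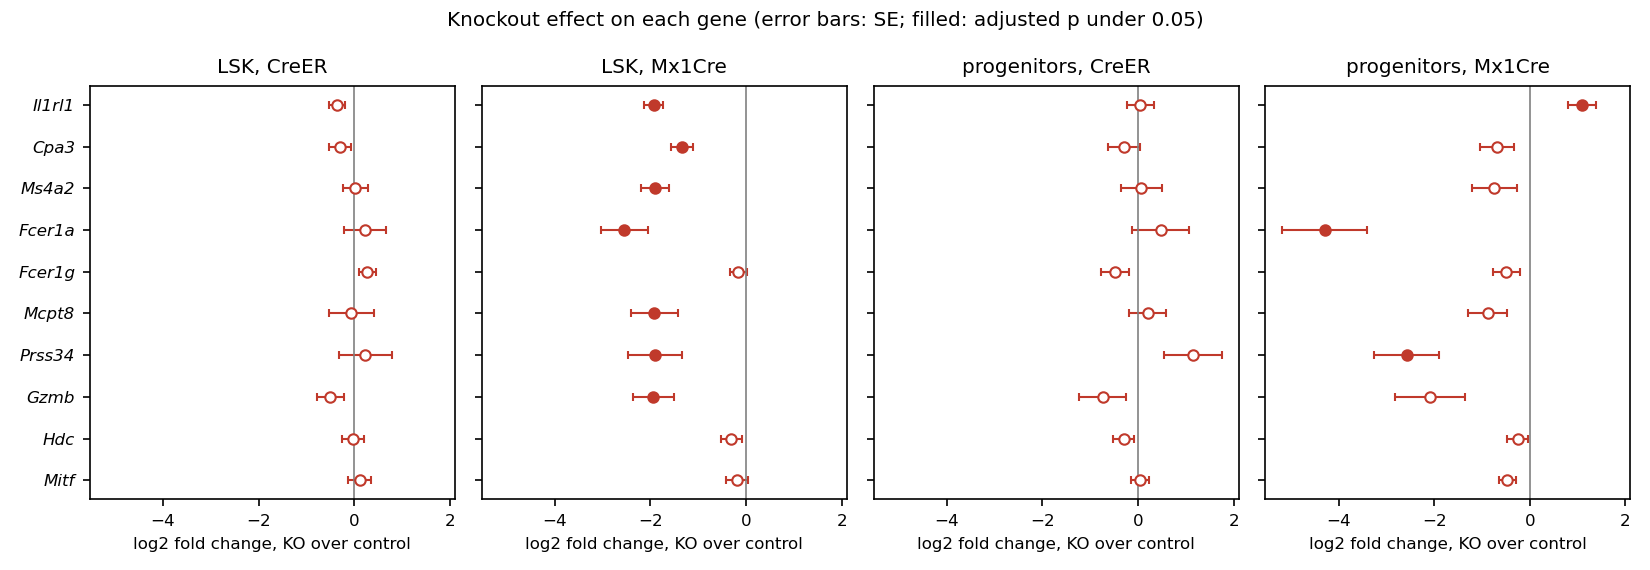
log2 fold change of knockout over control with its standard error for the 10 genes, in LSK cells and progenitors of each Cre line, with filled points for an adjusted p under 0.05. Filled points on the lower side are 7 in Mx1-Cre LSK cells, and none of the 10 is filled in either population of the RosaCreERT2 line.

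The size of the knockout effect differed between the Cre lines in LSK cells for 3 of the 10 genes. In the test of the difference, Mx1-Cre minus RosaCreERT2, 3 genes were called lower, against 3.68% of all genes tested called lower and 4.37% called in either direction. Il1rl1 had a difference in log2 fold change of -1.57 ± 0.26 (SE, adjusted p = 0.00142 in edgeR), and Ms4a2 one of -1.94 ± 0.39 (adjusted p = 0.00807). For Fcer1a it was -2.77 ± 0.65 (adjusted p = 0.0216 in edgeR), but -2.70 with an adjusted p of 0.055 without Mx1-Cre knockout 3. Without RosaCreERT2 knockouts 2 and 3 the differences were -1.51 for Il1rl1 (adjusted p = 0.00972), -1.79 for Ms4a2 (0.0402) and -2.65 for Fcer1a (0.0849), so that the Fcer1a call ended. The other granule protease genes had differences that missed the threshold, at -1.03 for Cpa3 (adjusted p = 0.0701), -1.86 for Mcpt8 (0.115), -2.14 for Prss34 (0.117) and -1.43 for Gzmb (0.111). DESeq2 called Cpa3 (adjusted p = 0.0218) and Gzmb (0.0228) as well. Without RosaCreERT2 control 3, edgeR called 6 genes, with differences of -3.75 for Fcer1a (adjusted p = 7.22e-05), -3.60 for Prss34 (0.000141) and -3.04 for Mcpt8 (0.00012). With 1 library left out, this test called 319 to 2556 of all genes, against 616 with all libraries. The 6 genes therefore cannot be set against the 4.37% above. The differences for Fcer1g, Hdc and Mitf were -0.44, -0.28 and -0.32 and were not called.

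Averaged over both Cre lines, 6 of the 10 genes were lower in knockout LSK cells, against 14.3% of all genes tested called lower and 27.8% called in either direction. Il1rl1 had a mean log2 fold change of -1.15 ± 0.13 (SE, adjusted p = 4.49e-06 in edgeR) and Gzmb one of -1.22 ± 0.26 (adjusted p = 0.00197). Ms4a2 fell by 0.94 ± 0.20 (adjusted p = 0.00179 in edgeR), Fcer1a by 1.16 ± 0.33 (adjusted p = 0.0131) and Cpa3 by 0.82 ± 0.16 (adjusted p = 0.00116), on the log2 scale. Mcpt8 fell by 0.99 ± 0.34 (adjusted p = 0.0367 in edgeR), a call that was lost in 9 of the 16 fits that left out 1 library. The libraries left out there were RosaCreERT2 knockouts 1, 2 and 4 and control 3, and Mx1-Cre knockouts 1, 2 and 4 and controls 1 and 4. In those 9 fits the Mcpt8 value lay between -1.03 and -0.41 with adjusted p of 0.0504 to 0.0812, and without RosaCreERT2 knockouts 2 and 3 it was -1.11 with an adjusted p of 0.0622. Prss34 had a mean of -0.84 and was not called (adjusted p = 0.12 in edgeR). The other 5 calls held without these libraries, at -1.20 for Il1rl1 (adjusted p = 5.10e-05), -1.20 for Gzmb (0.00997), -1.03 for Ms4a2 (0.00473), -1.24 for Fcer1a (0.0334) and -0.84 for Cpa3 (0.00605).

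The control libraries of the Cre lines differed from each other. In LSK cells, Mx1-Cre controls over RosaCreERT2 controls, 3 of the 10 genes were called, against 21.7% of all genes tested, and 4 had separate ranges, against 28.8%. Without RosaCreERT2 control 3, 7 genes were called. In fits without 1 library, 2107 to 2990 of all genes were called, against 3054 with all libraries. Gzmb was lower in the Mx1-Cre controls by 3.16 ± 0.33 on the log2 scale (log2 fold change -3.16, SE, adjusted p = 3.95e-06 in edgeR). Il1rl1 was lower too, with a log2 fold change of -0.83 ± 0.17 (adjusted p = 0.00243), and Fcer1g was higher, with 1.01 ± 0.18 (adjusted p = 0.000824). In progenitors the same contrast called 6 of the 10, against 25.3% of all genes tested, and 6 had separate ranges, against 26.3%. Lower in Mx1-Cre control progenitors were Gzmb (log2 fold change -3.76 ± 0.58, adjusted p = 0.000358 in edgeR), Il1rl1 (-2.30 ± 0.30, 0.000107), Ms4a2 (-2.09 ± 0.45, 0.00368) and Cpa3 (-1.74 ± 0.35, 0.00199). Higher there were Fcer1g (2.11 ± 0.30, adjusted p = 0.000224) and Mitf (0.88 ± 0.19, 0.00305). Markers of other myeloid cells differed in the same contrasts. Of 7 granulocyte and monocyte progenitor markers, 7 were higher in Mx1-Cre controls in each population, at a summed 17290 to 21340 CPM in Mx1-Cre and 4981 to 11180 CPM in RosaCreERT2 control LSK cells, and at 35140 to 38310 CPM and 13630 to 25510 CPM in the control progenitors. Of 7 mature neutrophil markers, 7 were higher in each population, at 378 to 2300 CPM in Mx1-Cre and 92.2 to 172 CPM in RosaCreERT2 control LSK cells, and at 1142 to 14500 CPM and 274 to 631 CPM in the control progenitors. Of the monocyte and macrophage markers tested, 4 of 8 were higher in LSK cells and 4 of 5 in progenitors. Their part in the results for the 10 genes was not tested, and Cre line, inducing agent and mouse cohort cannot be told apart in these contrasts.

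In progenitors of the Mx1-Cre line, Fcer1a and Prss34 fell and Il1rl1 rose with loss of Hbo1. These 3 of 10 compare with 6.08% of all 13692 genes tested being called, 4.49% lower and 1.59% higher, and 3 of the 10 genes, Fcer1a, Mcpt8 and Prss34, had separate ranges, against 9.45%. Fcer1a stood at 0.652, 0, 0 and 0 CPM in the knockouts, against 5.78, 3.89, 3.13 and 4.94 CPM in the controls. The knockout values rest on 10 counts in knockout 1 and none in the other 3 libraries, where 3 counts would have been 0.26, 0.331 and 0.448 CPM. The fitted log2 fold change was -4.29 ± 0.89 (SE, n = 4 each, adjusted p = 0.00769 in edgeR), and with each library left out in turn it lay between -8.64 and -3.88 and stayed past the threshold in 8 of 8 fits.

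Prss34 had 6.91, 1.56, 6.61 and 8.21 CPM in Mx1-Cre knockout progenitors, against 38.6, 26.7, 30.3 and 40.9 CPM in the controls. Every knockout was far below every control, and the log2 fold change was -2.58 ± 0.68 (SE, adjusted p = 0.0319 in edgeR). The call was lost in 5 of 8 fits that left out 1 library (knockout 1, 2 or 3, or control 3 or 4), with values of -2.69 to -2.25 and adjusted p of 0.0514 to 0.0892. Without control 1 and knockout 4, which stood apart in the length slope, it was -2.68 with an adjusted p of 0.0511. Mcpt8, the other basophil protease, stood at 13.5, 14.2, 14.1 and 23.6 CPM in the knockouts, against 35.98, 27.0, 27.2 and 29.6 CPM in the controls. The ranges were separate, but its log2 fold change of -0.89 did not pass the test (adjusted p = 0.255 in edgeR).

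Il1rl1 went the other way in these progenitors, with 55.0, 32.5, 31.1 and 21.9 CPM in Mx1-Cre knockouts and 25.0, 17.3, 12.0 and 11.6 CPM in controls. Knockout 4 lay below control 1, so the ranges overlapped. The log2 fold change was 1.08 ± 0.29 (SE, adjusted p = 0.0368 in edgeR), and the call was lost in 6 of 8 fits that left out 1 library (knockout 1, 2 or 3, or control 2, 3 or 4), with values of 0.79 to 1.14 and adjusted p of 0.0593 to 0.161. With the trend on exon length removed it was 0.98 with an adjusted p of 0.066, and in a fit of these 8 libraries alone 1.10 with 0.164. Without control 1 and knockout 4, which are the libraries that overlapped, it was 1.54 with an adjusted p of 0.00324. Megakaryocyte and erythroid markers summed to 411 to 635 CPM in the knockouts and 187 to 1178 CPM in the controls of this comparison, and eosinophil markers to 85.0 to 99.2 CPM and 104.5 to 341 CPM. Of the monocyte and macrophage markers tested, 2 of 5 were lower, with the list at a summed 735 to 1211 CPM in the knockouts, against 1580 to 2572 CPM in the controls. C1qa was at 0 in all 4 knockouts, and C1qb and C1qc in all 4 controls. Of 7 granulocyte and monocyte progenitor markers, 2 were lower, at 24580 to 28110 CPM in the knockouts, against 35140 to 38310 CPM in the controls. The part of these cell types in the results was not tested.

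The remaining genes were not called in Mx1-Cre progenitors. Cpa3 had 13.7, 19.8, 20.8 and 18.1 CPM in the knockouts, against 15.2, 26.5, 34.3 and 40.6 CPM in the controls. Ms4a2 had 4.89, 3.73, 5.18 and 2.09 CPM in the knockouts, against 3.91, 6.68, 8.64 and 8.01 CPM in the controls. In both genes control 1 lay within the knockout range, and the log2 fold changes were -0.69 for Cpa3 and -0.74 for Ms4a2. Gzmb stood at 0.456, 0.433, 0 and 1.04 CPM in the knockouts and 0.751, 1.61, 2.38 and 3.26 CPM in the controls, with a log2 fold change of -2.09 (adjusted p = 0.119 in edgeR, 0.0146 in DESeq2). The ranges overlapped through knockout 4 and control 1. Fcer1g, Hdc and Mitf had log2 fold changes of -0.49, -0.26 and -0.47.

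None of the 10 genes passed the test in RosaCreERT2 knockout progenitors. edgeR called 0 of 10, against 0.168% of all genes tested, 0 genes had an unadjusted p under 0.05, DESeq2 called 0, and 0 of 10 had separate ranges, against 9.58% of all genes tested. Prss34 had 111, 165, 80.2 and 52.1 CPM in the knockouts, against 71.9, 11.1, 89.97 and 8.36 CPM in the controls. Controls 2 and 4 were far below the other libraries while controls 1 and 3 lay among the knockouts, and the log2 fold change was 1.15 ± 0.61 (SE, adjusted p = 0.73 in edgeR). Fcer1a showed the same controls apart, at 19.7, 25.4, 10.7 and 10.02 CPM in the knockouts, against 20.3, 4.94, 18.8 and 2.35 CPM in the controls. The eosinophil genes Epx and Prg2 were also low in controls 2 and 4, with Epx at 6.83, 65.5, 157 and 43.3 CPM in the knockouts and 140, 8.54, 73.0 and 3.65 CPM in the controls. The part of eosinophils in these values was not tested. Il1rl1 had 99.8, 101, 63.1 and 79.7 CPM in the knockouts and 104, 95.1, 56.4 and 73.5 CPM in the controls, with groups that overlapped over nearly their whole range.

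For progenitors averaged over both Cre lines, only Fcer1a of the 10 genes was called, with a log2 fold change of -1.91 ± 0.55 (SE, adjusted p = 0.0422 in edgeR), against 7.79% of all genes tested. This call was lost in 10 of 16 fits that left out 1 library, with values of -1.96 to -1.70 and adjusted p of 0.0561 to 0.0903. The libraries were RosaCreERT2 knockouts 1, 3 and 4 and controls 1 and 3, and Mx1-Cre knockouts 2, 3 and 4 and controls 2 and 4. Without Mx1-Cre control 1 and knockout 4, which stood apart in the length slope, Fcer1a was not called (-1.69, adjusted p = 0.0733 in edgeR), while Il1rl1 was called higher (0.79, 0.00826) and Gzmb lower (-1.78, 0.0219). The test of the difference between the Cre lines called 0 of 10 in edgeR, against 0.299% of all genes tested, with 3 at an unadjusted p under 0.05 and 2, Fcer1a and Prss34, called by DESeq2. The differences, Mx1-Cre minus RosaCreERT2, were -4.77 ± 1.09 for Fcer1a (adjusted p = 0.105 in edgeR) and -3.72 ± 0.91 for Prss34 (adjusted p = 0.141).

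Whether the knockout effect, averaged over both Cre lines, differed between the populations was tested across all 32 libraries. Of the 10 genes only Il1rl1 was called, against 2.52% of all genes tested, with a difference in log2 fold change, LSK minus progenitors, of -1.73 ± 0.25 (SE, adjusted p = 0.000246 in edgeR). The call held in every fit that left out 1 library. Both populations came from the same mice, and with the mouse as a block the difference was -1.71 (adjusted p = 3.45e-05 in edgeR). The block used the labelled mouse also for RosaCreERT2 knockout LSK libraries 2 and 3, whose sex-linked genes went against their labels. Without these libraries and without a block the Il1rl1 difference was -1.78 (adjusted p = 0.00116). In Mx1-Cre mice this was a fall in LSK cells beside a rise in progenitors whose call depends on single libraries, as given above. In RosaCreERT2 mice the log2 fold changes of Il1rl1 were -0.36 in LSK cells and 0.05 in progenitors, and neither was called.

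LSK cells and progenitors differed in the genes they carried most of. Among controls, 7 of the 10 genes were called, against 34.6% of all genes tested, 4 higher and 3 lower in LSK cells. The basophil proteases led, with log2 fold changes of LSK over progenitors of 2.66 ± 0.46 for Prss34 (SE, n = 8 each, adjusted p = 5.36e-05 in edgeR) and 1.69 ± 0.34 for Mcpt8 (adjusted p = 0.000279). Fcer1a was higher in LSK cells by 1.61 ± 0.39 (adjusted p = 0.00211 in edgeR) and Cpa3 by 0.89 ± 0.22 (adjusted p = 0.00204). Hdc was lower in LSK cells, at -0.77 ± 0.17 (adjusted p = 0.000656 in edgeR), as were Fcer1g at -0.53 ± 0.18 (adjusted p = 0.0237) and Il1rl1 at -0.51 ± 0.18 (adjusted p = 0.0255). Without RosaCreERT2 LSK control 3 the values were 1.94 for Prss34 (adjusted p = 2e-04), 1.10 for Mcpt8 (0.00112), 1.13 for Fcer1a (0.0137) and 0.76 for Cpa3 (0.00707). The Fcer1g call ended without RosaCreERT2 LSK control 1, RosaCreERT2 progenitor control 3 or Mx1-Cre progenitor control 4, at -0.48 to -0.41. The Il1rl1 call ended without Mx1-Cre LSK control 3 or 4, RosaCreERT2 progenitor control 1 or 2, or Mx1-Cre progenitor control 1, at -0.47 to -0.38. Among knockouts, 5 genes were called, against 29.3% of all genes tested. Prss34 (2.54 ± 0.48, adjusted p = 0.000132), Fcer1a (2.33 ± 0.53, 0.00106) and Mcpt8 (1.04 ± 0.34, 0.0199) were higher in LSK cells, and Il1rl1 (-2.23 ± 0.19, 2.96e-10) and Hdc (-0.67 ± 0.17, 0.00245) were lower. Without RosaCreERT2 knockout LSK libraries 2 and 3 the Mcpt8 call ended (0.93, adjusted p = 0.0749), and the other 4 held, at 2.45 for Prss34, 2.28 for Fcer1a, -2.26 for Il1rl1 and -0.64 for Hdc. The populations came from the same mice, and with the mouse as a block Ms4a2 was also called higher among controls (0.61, adjusted p = 0.0379 in edgeR) and Cpa3 among knockouts (0.58, 0.009). That fit took the labelled mouse also for RosaCreERT2 knockout LSK libraries 2 and 3, whose sex-linked genes went against their labels.

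Per kilobase of exon, the genes spanned a wide range in the same cells. In Mx1-Cre control LSK cells Prss34 had the highest mean level, at 228 CPM per kb, followed by Mcpt8 at 127.1, Fcer1g at 104.6, Cpa3 at 58.2 and Hdc at 48.0 CPM per kb. Fcer1a at 21.9 and Ms4a2 at 17.3 CPM per kb came next, and Il1rl1, Mitf and Gzmb had 2.77, 2.05 and 1.61 CPM per kb. In RosaCreERT2 control LSK cells Prss34 and Mcpt8 had means of 185 and 121 CPM per kb with all 4 libraries, and of 68.3 and 53.8 CPM per kb without control 3, where Cpa3 had 66.4 CPM per kb. Gzmb had 14.8 CPM per kb with all 4 libraries.

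Ordered by group mean, each gene had its own ranking of the 8 groups. Il1rl1 was highest in RosaCreERT2 knockout progenitors, at 85.8 ± 18.02 CPM (SD, n = 4), next to their controls at 82.3 ± 21.6 CPM, and lowest in Mx1-Cre knockout LSK cells, at 5.06 ± 0.498 CPM. Of the 7 pairs of neighbours in its order, 3 had separate ranges. Prss34 was highest in Mx1-Cre control LSK cells, at 277 ± 66.1 CPM, and lowest in Mx1-Cre knockout progenitors, at 5.82 ± 2.93 CPM. Only the lowest pair of neighbours, these knockouts and their controls at 34.1 ± 6.73 CPM, had separate ranges. Gzmb split by Cre line, with all 4 RosaCreERT2 groups at means of 14.7 to 26.9 CPM and all 4 Mx1-Cre groups at 0.484 to 2.28 CPM, and the step between these sets was its only separate neighbour pair. Fcer1g had the reverse order, with Mx1-Cre group means of 61.6 to 146 CPM above RosaCreERT2 means of 24.7 to 41.7 CPM, and likewise 1 separate pair. Ms4a2 and Fcer1a had 1 separate pair each, and Cpa3, Mcpt8, Hdc and Mitf had none. Separate neighbour pairs were not counted over all genes tested, so whether these counts are many or few is not known. The means of Mitf spanned only 6.68 ± 0.611 CPM in RosaCreERT2 control progenitors to 12.3 ± 2.94 CPM in Mx1-Cre control progenitors.

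Some of the genes, among them the basophil proteases, varied together among libraries of the same group. With group means removed, the correlation of log2 CPM over the 16 LSK libraries was 0.962 for Mcpt8 with Prss34, 0.875 for Fcer1a with Prss34, 0.854 for Fcer1a with Mcpt8 and 0.709 for Cpa3 with Ms4a2. Over the 16 progenitor libraries it was 0.872 for Mcpt8 with Prss34 and 0.816 for Cpa3 with Ms4a2. Other pairs were low or negative in LSK libraries, such as Il1rl1 with Prss34 at -0.0102, Gzmb with Mcpt8 at 0.0124 and Mitf with Prss34 at -0.329. These values are descriptions, and the points share library depth. The LSK points include RosaCreERT2 control 3, and values without it were not computed. Each mouse gave both populations, and over the 16 mice the deviation of a gene from its group mean in LSK cells correlated with that in progenitors at 0.645 for Hdc, 0.599 for Fcer1a, 0.513 for Mcpt8 and 0.509 for Prss34, but at 0.077 for Gzmb and -0.242 for Mitf. Without the 2 mice of RosaCreERT2 knockout LSK libraries 2 and 3 these were 0.724, 0.626, 0.51, 0.527, 0.0624 and -0.0366, in the same order of genes. RosaCreERT2 control mouse 3 illustrates this, with Prss34 at 652 CPM in its LSK library and 89.97 CPM in its progenitor library, the highest of the 4 controls in both.

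The ratio of Prss34 to Mcpt8, in CPM, moved between groups even though the levels of both genes varied together between libraries. It was 1.46 to 3.17 in all 16 LSK libraries. In progenitors it was 2.04 to 2.83 in RosaCreERT2 knockouts and 0.557 to 1.57 in their controls, and 0.11 to 0.512 in Mx1-Cre knockouts, against 0.988 to 1.38 in their controls. The ranges were separate in both progenitor comparisons, in opposite directions.

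**Figure D3:**
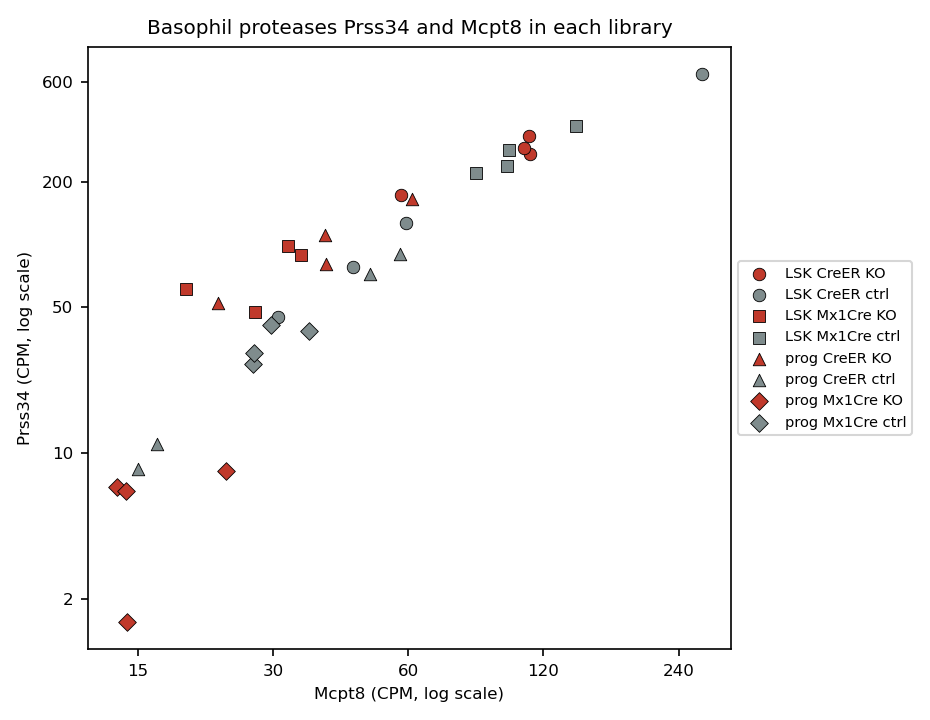
Level of Prss34 against Mcpt8 in the 32 libraries, in CPM on log axes, with population, Cre line and genotype marked. LSK libraries lie along a band with Prss34 at 1.46 to 3.17 times Mcpt8, while the 4 Mx1-Cre knockout progenitor libraries lie below all others in Prss34, at 1.56 to 8.21 CPM.

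For each gene, the 3 other genes with the most similar log2 CPM over the 32 libraries were listed as a description, with group differences and depth shared by all points. Fcer1a, Mcpt8 and Prss34 had overlapping lists: Cdh1 correlated at 0.931, 0.852 and 0.846, Cyp11a1 at 0.871, 0.757 and 0.837, and Cd200r3 stood in the lists of Mcpt8 and, at 0.868, of Prss34. Cpa3 was most like Ephb6 (0.932), Slc18a2 (0.913) and Cavin1 (0.911). Il1rl1 was most like Optn (0.974), Tom1l1 (0.961) and Rab4a (0.959), and Fcer1g like Tyrobp (0.954), Cd52 (0.95) and Bmx (0.938). Ms4a2 had Trim25 (0.902), Csf1 (0.896) and Helz2 (0.893), and Gzmb had Fam174b (0.943), Lgals3bp (0.928) and Slfn8 (0.917). The lists of Hdc (Dstn, 0.855) and Mitf (Pisd, 0.783) started lower.

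Other genes of mast cells and basophils were followed in lists of 92 genes, of which 74 were tested in LSK cells and 72 in progenitors. In knockout LSK cells averaged over both Cre lines, 20 of the 74 were higher and 20 lower, with a median log2 fold change of -0.04, against 13.5% of all genes tested called higher and 14.3% lower. In knockout progenitors 4 of 72 were higher and 7 lower, against 2.28% and 5.51% of all genes tested. In Mx1-Cre knockout LSK cells 18 of the 74 were higher and 27 lower, against 15.2% and 15.9% of all genes tested.

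Transcription factors of these lineages held 10 of the 20 genes that fell in knockout LSK cells, with 6 higher and 10 lower of 20 tested. Gata2 stood at 48.1, 73.1, 74.4 and 81.1 CPM in Mx1-Cre knockout LSK cells, against 206, 195, 172 and 256 CPM in controls. In RosaCreERT2 LSK cells it had 298, 204, 288 and 239 CPM in the knockouts, against 474, 501, 421 and 447 CPM in the controls. Every knockout was below every control in both lines, with log2 fold changes of -1.59 ± 0.16 in Mx1-Cre cells (adjusted p = 1.11e-06 in edgeR) and -0.84 ± 0.15 in RosaCreERT2 cells (adjusted p = 0.00633). Without RosaCreERT2 knockouts 2 and 3 the Gata2 value in that line was -0.78 with an adjusted p of 0.11, so that the call ended. Gata1 fell by 2.32 ± 0.24 on the log2 scale in Mx1-Cre knockout LSK cells (adjusted p = 1.56e-06 in edgeR) and had -0.46 ± 0.21 in RosaCreERT2 cells (adjusted p = 0.252). Stat5a, a mediator of cytokine signals, fell in both lines averaged by 0.53 ± 0.06 (adjusted p = 6.72e-06). In progenitors neither GATA gene passed the test, and the 4 of 20 that did were Irf8 (-1.45 ± 0.17), Runx1, Zeb2 (both lower) and Bhlhe40 (higher).

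Genes for making, storing and releasing mediators had 1 higher and 3 lower of 11 tested in knockout LSK cells. Slc18a2, the vesicular monoamine transporter that loads histamine into granules, had 15.5, 27.3, 17.5 and 13.1 CPM in Mx1-Cre knockout LSK cells, against 85.3, 89.0, 66.0 and 79.0 CPM in controls. The ranges were separate, with a log2 fold change of -2.11 ± 0.23 (adjusted p = 3.24e-06 in edgeR) and a difference from the RosaCreERT2 line of -1.58 ± 0.31 (adjusted p = 0.00655). Rab27b, a small GTPase of granule release, had 0.569, 1.02, 0.783 and 1.41 CPM in the Mx1-Cre knockouts, against 10.5, 8.24, 6.67 and 10.5 CPM in controls, at a log2 fold change of -3.23 ± 0.30 (adjusted p = 5.69e-07). Ptgs1, the cyclooxygenase of prostaglandin synthesis, rose in both populations and all 4 comparisons had separate ranges. It had 125, 105, 108 and 96.5 CPM in Mx1-Cre knockout LSK cells, against 38.8, 35.2, 25.9 and 25.3 CPM in controls, and its mean log2 fold change over both lines was 1.34 ± 0.09 in LSK cells (adjusted p = 3.31e-08 in edgeR) and 1.08 ± 0.13 in progenitors (adjusted p = 7.08e-05).

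Signalling genes downstream of FcεRI had 2 higher and 4 lower of 13 tested in knockout LSK cells and 1 lower of 13 in progenitors. Lat2, an adaptor of the receptor, fell in both populations, at 29.2, 32.1, 30.1 and 39.7 CPM in Mx1-Cre knockout LSK cells, against 62.5, 61.9, 59.6 and 74.8 CPM in controls. Its mean log2 fold change over both lines was -0.76 ± 0.09 in LSK cells (adjusted p = 6.44e-06 in edgeR) and -1.37 ± 0.17 in progenitors (adjusted p = 6.89e-05). The kinase gene Fyn (-0.59 ± 0.10, adjusted p = 0.000317) and the phospholipase gene Plcg1 (-0.59 ± 0.11, 0.00094) fell in LSK cells.

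Of the cytokine receptor genes tested, 2 of 11 were higher and 1 lower in knockout LSK cells, the lower one being Kit, the stem cell factor receptor, at -0.43 ± 0.07 (adjusted p = 0.000307 in edgeR). Il1rap, which encodes the co-receptor of ST2, fell in knockout progenitors, by 0.60 ± 0.15 on the log2 scale (adjusted p = 0.0248). In the IL-33 pathway list, 5 of 6 genes were tested, and in knockout LSK cells 2 were higher and 1 lower. Myd88, an adaptor of the receptor, was higher at 0.34 ± 0.07 (adjusted p = 0.0024), as was the kinase gene Irak4 at 0.24 (0.0113), and the kinase gene Irak1 was lower at -0.26 (0.0215). Surface marker genes had 6 higher and 1 lower of 11 tested in LSK cells. Itga2, an integrin chain of basophils and other cells, was the lower one at -1.38 ± 0.28 (adjusted p = 0.0017), and Siglecf, a lectin of eosinophils, was among the higher at 0.60 ± 0.10 (adjusted p = 0.000192). Of 15 other granule protein genes, mostly mast cell proteases, only 4 were tested in each population: Prss57 was higher in knockout LSK cells, at 0.64 ± 0.15 (adjusted p = 0.00335), and Srgn, the core protein of granule proteoglycan, was lower in progenitors, at -0.65 ± 0.13 (adjusted p = 0.00512). Without RosaCreERT2 knockout LSK libraries 2 and 3, every LSK call averaged over both lines that is named here among the listed genes held, and so did the Slc18a2 difference between the lines (-1.70, adjusted p = 0.00391).

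**Figure D4:**
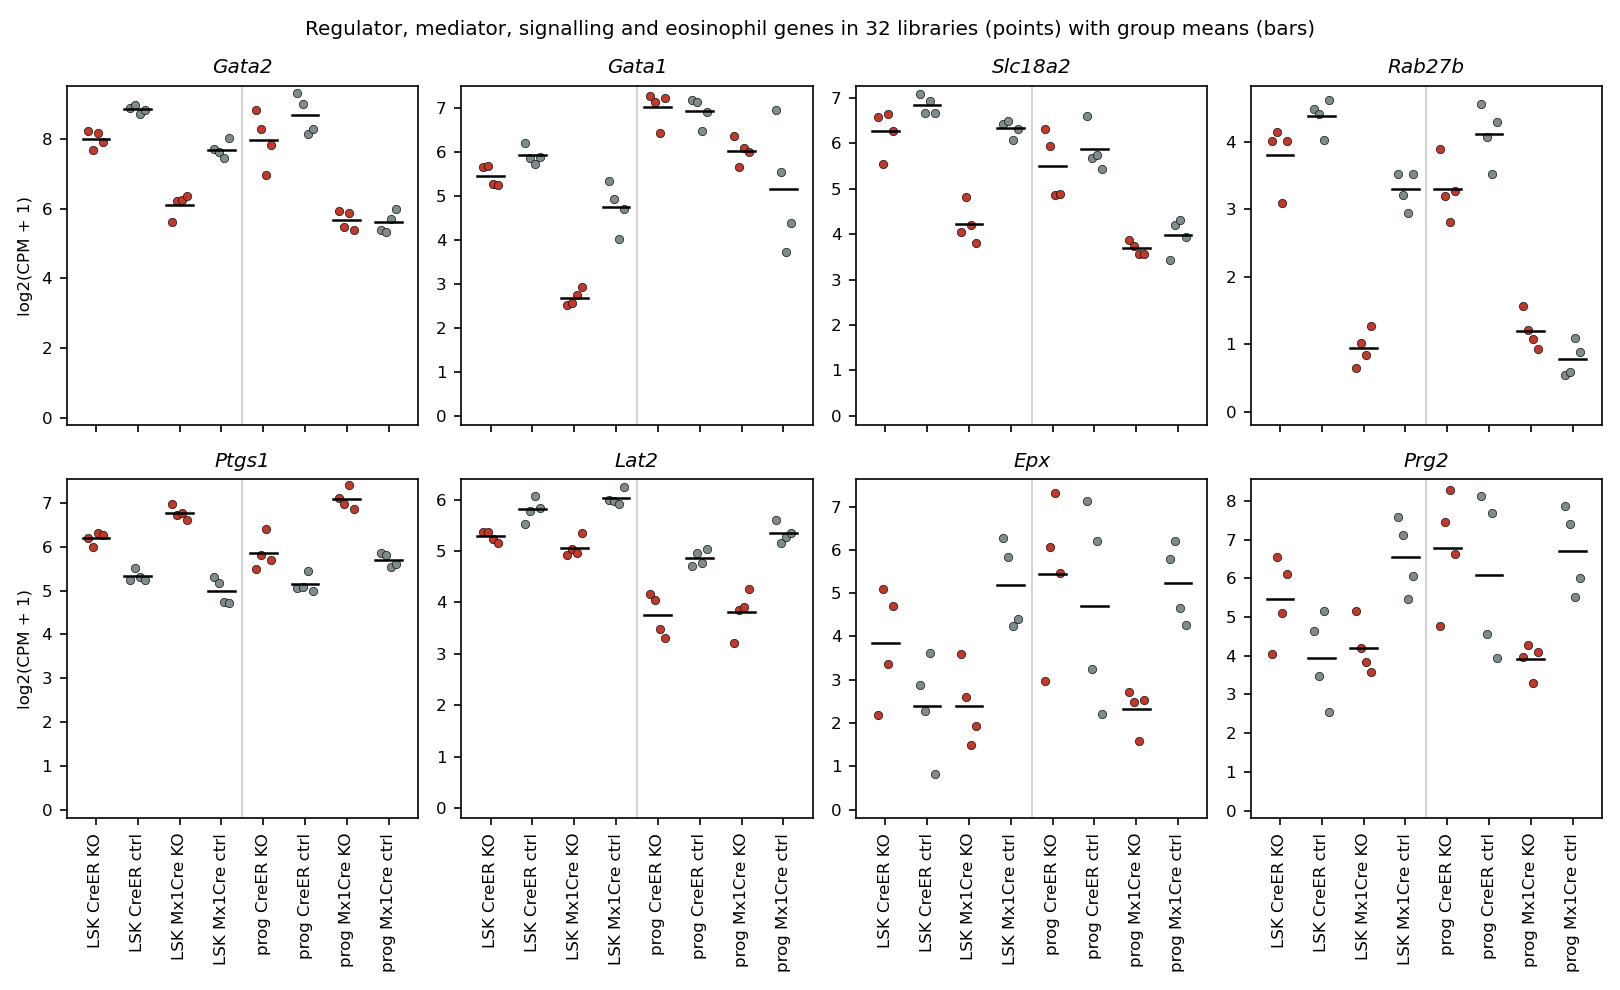
Level of Gata2, Gata1, Slc18a2, Rab27b, Ptgs1, Lat2, Epx and Prg2 in every library as log2(CPM + 1), with groups, colours and bars as in the plot of the 10 genes by library. Gata2 lies below its controls in the knockout LSK cells of both Cre lines, while Epx and Prg2 vary widely among RosaCreERT2 libraries of the same group.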

How the data were processed

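Counts per gene were deposited by the authors for 32 RNA-seq libraries, as 1 table of the series and 32 single-sample tables that hold the same values. TruSeq libraries were made from 50 ng of RNA and sequenced as paired 80 bp reads on a NextSeq500, per the labels. featureCounts and mm10 are named in the submitters' processing notes. Tool versions, aligner, annotation and strandedness of counting were not stated there. Genes without a symbol (1904 of 27179) held 3.92% of counts. Groups came from the sample titles, and no libraries had identical counts.

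From these counts, edgeR 4.0.16 in R 4.3.3 fitted a quasi-likelihood model with 1 mean per group to the 16 LSK libraries, the 16 progenitor libraries and all 32, with TMM scaling and filterByExpr by group (minimum count 10, minimum total 15). All genes that passed were tested and p-values adjusted by Benjamini-Hochberg, with a threshold of 0.05. Standard errors are the log2 fold change divided by the square root of F. Correlations used log2 CPM with a prior count of 2. Alternatives were DESeq2 1.42.0, its size factors, no filter, a filter of 1 CPM in 4 libraries, and a replicate or mouse block. Others were removal of the trend on exon length by offsets in edgeR, fits of only the groups compared, and leaving out libraries. Only the LSK fit was tested on simulated counts, with the same spread setting for every gene. The wider spread of some of the 10 genes was not simulated. The model was checked for pairing: deviations from group means correlated at -0.0939 to 0.427 between the LSK and progenitor libraries of the same mouse, above 0.1 in 14 of 16 mice. The exceptions were RosaCreERT2 knockout LSK libraries 2 and 3, at -0.0939 and -0.0634, whose sex-linked genes went against their labels. Whether these libraries were exchanged was not tested.

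The 10 genes and the other gene lists were chosen with earlier results of these data known. Named besides the 10 were Kat7, of each list up to 4 genes with the lowest adjusted p in knockout LSK cells and up to 4 in knockout progenitors, and for each gene the 3 most similar in log2 CPM (mean of at least 1 and a named symbol). Promoters are RefSeq sequence of GRCm38.p6, and CPM per kb used exon lengths in the deposited table. Floors given for libraries without counts cover counting error only. Standard errors and SDs also include the variation between libraries of a group.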

Additional observations from a re-analysis of the deposited data

Results flagged for a closer look

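Single libraries stood apart from the other 3 of their group in 5 of 80 checks of a gene in a group, where chance gives about 1 in 20. In each, the gap to the nearest library made up most of the range of the group. The flagged values were Fcer1a in Mx1-Cre knockout progenitor 1 at 0.652 CPM, the only 1 of its group with counts, and Mcpt8 in Mx1-Cre knockout progenitor 4 at 23.6 CPM. In RosaCreERT2 LSK cells they were Mcpt8 in knockout 1 at 57.8 CPM, the lowest of its group, and Mcpt8 at 270 CPM and Prss34 at 652 CPM in control 3, the highest of theirs.

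Effects that differed between groups by a test of the difference were those of Il1rl1 (-1.57), Ms4a2 (-1.94) and Fcer1a (-2.77) between the Cre lines in LSK cells, as the Mx1-Cre minus the RosaCreERT2 log2 fold change. The difference for Il1rl1 between LSK cells and progenitors was -1.73 on the log2 scale.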

How the results depend on the processing

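The 42 calls for the 10 genes were recomputed in 887 alternatives: 839 kept direction and side of the threshold, 48 kept the direction but missed the threshold, and 0 reversed. Leaving out 1 library ended 8 of the calls in at least 1 fit, and another alternative ended 7. The number of the 10 genes called, with 1 library left out, was 0 to 3 for RosaCreERT2 LSK cells (0 with all libraries), 2 to 6 for the difference between Cre lines in LSK cells (3), 3 to 7 for LSK controls (3), 1 to 4 for Mx1-Cre progenitors (3) and 0 to 3 for progenitors of both lines (1). Over all genes tested, these LSK numbers were 159 to 714 (445), 319 to 2556 (616) and 2107 to 2990 (3054), in the same order. The progenitor numbers were 553 to 1541 (833) and 775 to 1794 (1067). Of the 10 genes, DESeq2 called 5 for the difference between Cre lines in LSK cells, 2 for progenitors of both lines and 2 for the difference in progenitors (0 in edgeR). Without progenitor Mx1-Cre control 1 and knockout 4, a choice made after seeing the data, 2 were called in progenitors of both lines, Il1rl1 (0.79, adjusted p = 0.00826) and Gzmb (-1.78, 0.0219), in place of Fcer1a. The cause was not tested.

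Values that were not called changed sign. The log2 fold change of Mcpt8 in RosaCreERT2 LSK cells was -0.06, but 0.24 with the replicate block and 0.040 with the length trend removed. With 1 library left out it lay between -0.36 and 1.11, that of Prss34 between -0.10 and 1.68 and that of Fcer1a between -0.11 and 1.19. In LSK controls the ranges were -0.26 to 1.04 for Fcer1a, -0.21 to 1.27 for Mcpt8 and -0.018 to 1.76 for Prss34.

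Replicate numbers do not mark shared mice between genotypes: deviations of same-numbered libraries correlated at -0.279 to 0.434, above 0.1 in 8 of 16 pairs. With the replicate block, 2 genes were called in progenitors of both lines and 4 for the difference in LSK cells (Cpa3 added, -1.09, adjusted p = 0.0363 in edgeR). The block by mouse added Ms4a2 (0.61, adjusted p = 0.0379) among LSK over progenitor controls and Cpa3 (0.58, 0.009) among knockouts. It used the labelled mouse for every library, also for RosaCreERT2 knockout LSK libraries 2 and 3. Depth limits Fcer1a and Gzmb in Mx1-Cre progenitors, where libraries at 0 allow 0.26 to 0.448 CPM.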

Other observations

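Mast cell chymase, Cma1, was counted mainly in the RosaCreERT2 line. It stood at 5.04, 2.55, 3.41 and 6.16 CPM in RosaCreERT2 knockout LSK cells and at 4.59, 7.17, 2.29 and 3.82 CPM in their controls. In Mx1-Cre LSK cells it had 0, 1.29, 0.313 and 0.177 CPM in knockouts and 0, 0.0785, 0.163 and 0 CPM in controls. The 4 RosaCreERT2 control values of Cma1 were thus all above the 4 Mx1-Cre control values, as they were for Gzmb. Between knockout and control Mx1-Cre LSK cells, Cma1 was called higher, at a log2 fold change of 2.97, while Gzmb was called lower. The Cma1 value rests on few counts, with 24 in knockout 2.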
